A study of Mus musculus with 6 samples.

Results

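The tissue kallikrein genes Klk1, Klk1b3, Klk1b4, Klk1b5 and Klk1b26, the plasma kallikrein gene Klkb1 and the kininogen genes Kng1 and Kng2 were followed in kidney cells sorted from newborns that kept or lacked Bdkrb2, the gene of the bradykinin B2 receptor. They were chosen by symbol, with earlier results of these data known, and every probe matched to one of these symbols was taken. The 8 genes, of 20887 named on the array, were carried by 10 of its 55681 probes, 2 each for Klk1b26 and Kng1 and 1 for each of the others.

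RNA was measured on 6 two-colour Agilent mouse arrays, 3 per group. The knockout samples (KO) were Hoxb7cre+; Bdkrb2f/f; R26RtdTomato, and the wild-type samples (WT) were Hoxb7cre+; R26RtdTomato; Bdkrb2+/+, both on a C57BL/6 background. The Cre transgene and the tdTomato reporter were thus common to both groups, as was exposure to food with 5% sodium during gestation. Kidneys were taken at postnatal day 1, and cells positive for both GFP and dsRED were collected by flow sorting. Hoxb7 drives Cre in the ureteric bud lineage, which forms the collecting duct, so the deletion is aimed at that lineage and not at the whole kidney. The number of animals behind a sample is not stated. Replicates are described as biological in the series text, and nothing ties each to its own animal, so p-values may measure only the spread between these samples. The single mating named in the protocols was between floxed parents and would not give the WT genotype, so the source of the WT pups is not stated. No group on a normal diet was analysed here, so no effect of salt could be measured.

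Kallikreins are serine proteases, and kininogens are the secreted precursors from which they release kinins. Tissue kallikrein, the product of Klk1, is made mainly by the connecting tubule in the kidney and is secreted into the urine, where it meets kininogen from the distal nephron and collecting duct. Plasma prekallikrein, the product of Klkb1, and most circulating kininogen come from the liver. The kinins act largely through the B2 receptor, which promotes sodium and water excretion, and are destroyed by peptidases such as angiotensin-converting enzyme and neprilysin. In the mouse, Klk1 lies at the end of a cluster with many close copies, the Klk1b genes, several of which act on growth factors or prorenin and not on kininogen.

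The promoters of the Klk1 family are shown first because they display how alike these genes are before their starts. The windows lie outside the transcripts, so they do not show how separately the probes can be read. Each sequence is the 120 bases before the annotated start, 5′ to 3′ along the gene, from RefSeq on GRCm38.p6, with the letters TTTAAA in capitals.
Klk1, chr7:44225240-44225359, plus strand: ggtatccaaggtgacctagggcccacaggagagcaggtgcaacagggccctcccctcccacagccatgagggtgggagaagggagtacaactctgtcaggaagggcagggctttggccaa
Klk1b3, chr7:44198071-44198190, plus strand: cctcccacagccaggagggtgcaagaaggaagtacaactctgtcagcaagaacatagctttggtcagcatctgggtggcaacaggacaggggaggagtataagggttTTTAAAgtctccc
Klk1b4, chr7:44207313-44207432, plus strand: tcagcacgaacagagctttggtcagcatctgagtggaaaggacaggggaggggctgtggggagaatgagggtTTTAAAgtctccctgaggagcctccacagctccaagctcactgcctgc
Klk1b5, chr7:44216354-44216473, plus strand: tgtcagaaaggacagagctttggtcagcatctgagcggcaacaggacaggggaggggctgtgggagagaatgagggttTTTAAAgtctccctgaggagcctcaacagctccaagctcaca
Klk1b26, chr7:44012558-44012677, plus strand: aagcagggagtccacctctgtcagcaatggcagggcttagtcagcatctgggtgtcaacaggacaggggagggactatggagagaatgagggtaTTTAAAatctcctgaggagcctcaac
The windows of plasma kallikrein and of Kng2 are given beside them as the members outside that family.
Klkb1, chr8:45294836-45294955, minus strand: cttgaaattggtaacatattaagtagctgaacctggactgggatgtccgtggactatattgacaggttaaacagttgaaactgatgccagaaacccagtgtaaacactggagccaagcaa
Kng2, chr16:23029102-23029221, minus strand: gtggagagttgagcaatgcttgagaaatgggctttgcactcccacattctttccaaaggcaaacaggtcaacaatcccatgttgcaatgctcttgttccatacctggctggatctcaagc
No window was matched to Kng1. Over the 250 bases before the start, the 10 pairs of Klk1 family windows were 80.6% to 91.1% identical over 153 to 247 aligned columns. The other 11 pairs, each with Klkb1 or Kng2, aligned over at most 22 columns. The 4 Klk1b windows shared an unbroken run of 21 bases, CCACAGCCAGGAGGGTGCAAG, here in capitals throughout, which lies within the printed stretch of Klk1b3. TTTAAA, which reads the same on both strands, was present in the windows of the 4 Klk1b genes, with its first base 13, 48, 42 and 26 bases before the start of Klk1b3, Klk1b4, Klk1b5 and Klk1b26. It was in 4 of 7 member windows and in 12.1% of 32851 promoter windows of the same length. The printed end of the Klk1 window matches a part of the Klk1b3 window that lies before its TTTAAA. Any stretch of Klk1 that matches the TTTAAA part of Klk1b3 was thus outside the bases searched, so its absence from Klk1 is not shown. The nuclear receptor half-site AGGTCA, searched on both strands, was in 5 of 7, with 3 matches in Klk1, against 14% of all windows. CCAAT was in 5 of 7 (33.8% of all windows), TATAAA in 1 of 7, that of Klkb1 (12.4%), and neither TGACGTCA (1.55%) nor the HNF1 half-site GTTAAT (6.43%) was found in any of the 7. No match overlapped a match of another of these strings, and a match is a description of the window only.

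Each sample's RNA was labelled with Cy5, and a common reference, taken from WT replicate 1, with Cy3. A ratio therefore states a sample's level against WT replicate 1, and the WT replicate 1 array sets that RNA against itself. Between 49.8% and 52.7% of spots were well above background in Cy5 on the WT arrays and between 56.6% and 57.5% on the KO arrays. No spot was saturated in Cy5, and saturation in Cy3 was not counted. The 75th percentile of the processed Cy5 signal was 548 to 625 on the KO arrays and 282 to 309 on the WT arrays. Raw processed signals thus understate how much lower a KO level was, and levels were compared after division by each array's 75th percentile. The collecting duct markers Aqp2, Aqp3, Avpr2 and Atp6v1b1 were well above background on all 6 arrays. Scnn1g was above background on none, and neither was the targeted gene Bdkrb2, whose single probe cannot check the labels here.

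Of the 10 member probes, 8 were well above background on all 6 arrays, and all 8 fell in the KO samples, with the 3 KO values below the 3 WT values in each. The probe Kng1 A_55_P2003410 entered the fit only through its WT arrays and is described without a test, and the remaining probe, of Klk1b26, was at background. Across the array, 25.4% of 29811 probes passed the same test in either direction, 14.2% passed as lower, and 23.7% had all KO values below all WT values. The tested probes of the 5 tissue kallikreins and of Kng2 fell 6.85-fold to 10.0-fold, with log2 differences, KO minus WT, from -2.78 to -3.32. With the brighter Kng1 probe, 7 of the 8 were called and at least 4-fold lower, as were 0.433% of all probes. The median difference over the 8 genes, each by its brightest probe, was -2.97, beside -0.0045 for all probes tested and -1.59 at their 1st percentile. The members were chosen with earlier results of these data known, so these comparisons are a description. Signal shared between close kallikrein copies was not checked, so their decreases may not be separate. The tests are limma's moderated test, 2-sided, with Benjamini-Hochberg adjustment over all 29811 probes and a threshold of 0.05. The errors given are its moderated standard errors (SE) with n = 3 arrays per group.

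**Figure D1:**
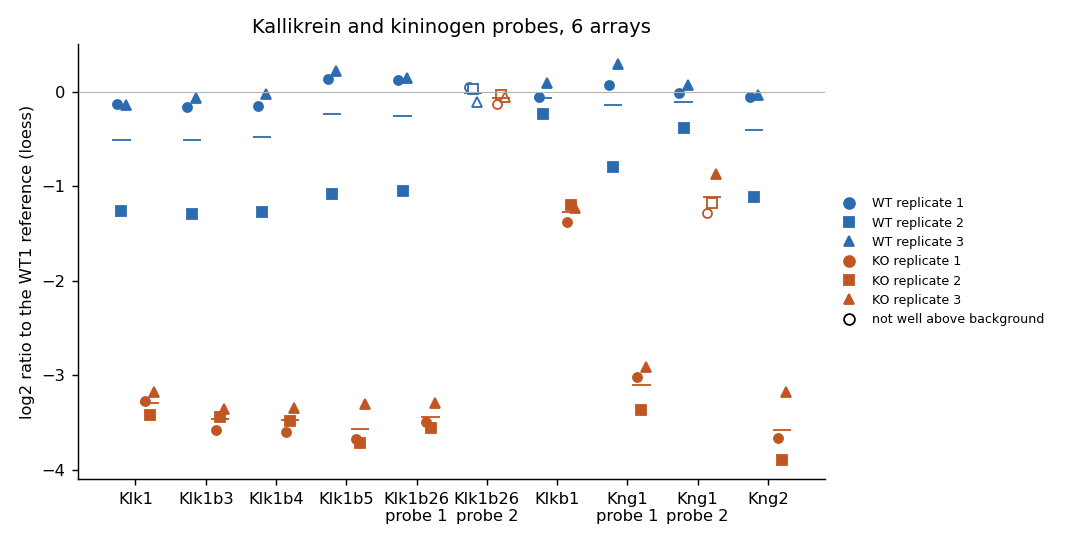
Loess-normalised log2 ratio of each sample to the WT replicate 1 reference (y axis) for the 10 kallikrein and kininogen probes (x axis), with WT arrays in blue, KO arrays in orange, and a bar at each group mean. Open symbols are spots not well above background. KO arrays lie below WT arrays for every tested probe, and WT replicate 2 lies below the other WT arrays.

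Klk1 encodes tissue kallikrein itself, the kinin-releasing enzyme of the distal nephron. Its processed Cy5 signal was 7621, 3428 and 6860 on the arrays of WT replicates 1, 2 and 3, and 1479, 1473 and 1419 on those of KO replicates 1, 2 and 3. The log10 ratios to the reference, in the same order, were -0.046, -0.380 and -0.036 in the WT samples and -0.996, -1.02 and -0.983 in the KO samples. The KO arrays were nearly alike and all below WT replicate 2, the lowest WT array. Divided by the array's 75th percentile, the Klk1 signal was 11.1 to 24.9 in WT and 2.36 to 2.59 in KO. The log2 difference was -2.78 ± 0.29 (SE), a 6.85-fold lower level (limma, adjusted p = 0.000646), which placed Klk1 20th among the decreases by loess ratios.

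Klk1b3 encodes the gamma subunit of the nerve growth factor complex of the salivary gland. Its processed Cy5 signals were 9176, 4115 and 8345 in WT replicates 1 to 3 and 1343, 1782 and 1689 in KO replicates 1 to 3. The log10 ratios were -0.0356, -0.382 and -0.00993 in the WT samples and -1.09, -1.03 and -1.01 in the KO samples. As for Klk1, WT replicate 2 stood between the other WT arrays and the KO arrays. Klk1b3 fell 7.72-fold, with a log2 difference of -2.95 ± 0.30 (limma, adjusted p = 0.000584).

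Klk1b4 encodes the alpha subunit of that complex, a kallikrein that has lost its protease activity. Its probe gave processed Cy5 signals of 2465, 985 and 2370 in WT and 398, 380 and 380 in KO. The log10 ratios were -0.0357, -0.383 and -0.0016 in the WT samples and -1.13, -1.11 and -1.06 in the KO samples, with no overlap between the groups. Klk1b4 fell 7.94-fold, with a log2 difference of -2.99 ± 0.30 (limma, adjusted p = 0.000577).

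Klk1b5, another glandular kallikrein, gave processed Cy5 signals of 17269, 8175 and 16848 in WT and 3030, 2824 and 2958 in KO. Its log10 ratios were 0.0101, -0.334 and 0.0627 in the WT samples and -1.10, -1.10 and -1.02 in the KO samples. Here too WT replicate 2 was the low WT array and the groups stayed apart. The log2 difference, -3.32 ± 0.33, a 10.0-fold lower level (limma, adjusted p = 0.000548), was by loess ratios the largest decrease among the member probes and the 3rd largest among all probes tested. By the scaled Cy5 signal alone Kng2 (-3.37) and Klk1b26 (-3.27) came before Klk1b5 (-3.17).

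Klk1b26 encodes a prorenin-converting kallikrein. Its probe A_55_P2025006 gave processed Cy5 signals of 9223, 3994 and 10169 in WT and 1581, 1527 and 1337 in KO. The log10 ratios were 0.00235, -0.334 and 0.0576 in the WT samples and -1.06, -1.09 and -1.03 in the KO samples, again without overlap. Klk1b26 fell 9.09-fold on this probe, with a log2 difference of -3.18 ± 0.30 (limma, adjusted p = 0.0005). The other Klk1b26 probe, A_55_P2001474, was at background level throughout, well above it on 0 of 6 arrays. Its processed Cy5 signals were 3.51, 4.13 and 3.33 in the WT samples and 4.28, 4.84 and 5.22 in the KO samples, its spots were 0.887 to 1.09 times their local background, and its log10 ratio was listed at 0 on all 6 arrays. It was not tested, and no level or fold is given for it. The probes of this gene therefore disagree on whether its transcript was measurable. Neither probe nor transcript sequences were compared here, so it cannot be told how much, if any, of one kallikrein's signal came from a close copy.

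Klkb1 encodes plasma prekallikrein, which is activated by factor XII at surfaces and cuts high-molecular-weight kininogen. Its probe was dim, with processed Cy5 signals of 97.7, 71.3 and 120 in WT and 41.6, 48.4 and 48.4 in KO. The log10 ratios were 0.0133, -0.185 and 0.0992 in the WT samples and -0.758, -0.674 and -0.654 in the KO samples, so the groups did not overlap, although WT replicate 2 was again the lowest WT array. The spot was 2.36 to 3.40 times its local background in WT and 1.66 to 1.81 times in KO, and was well above background on all 6 arrays. Klkb1 fell 2.30-fold by loess ratios, with a log2 difference of -1.20 ± 0.12 (limma, adjusted p = 0.000555). It fell 4.69-fold by Agilent's processed ratio (-2.23 ± 0.26, limma, adjusted p = 0.00494).

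Kng1 encodes kininogen, from whose transcript both the high- and the low-molecular-weight forms are made by alternative processing. The probe A_55_P2003414 gave processed Cy5 signals of 48130, 30183 and 49892 in WT and 13093, 10950 and 13852 in KO. The log10 ratios were 0.0415, -0.254 and 0.0842 in the WT samples and -0.879, -1.01 and -0.845 in the KO samples. All KO arrays lay below all WT arrays, of which WT replicate 2 was the lowest. On this probe Kng1 fell 7.73-fold, with a log2 difference of -2.95 ± 0.27 (limma, adjusted p = 0.000479).

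The other Kng1 probe, A_55_P2003410, gave processed Cy5 signals of 83.9, 48.6 and 83.8 in WT and 15.7, 18.8 and 28.0 in KO. All 3 WT arrays measured it well above background, but only 1 of 3 KO arrays did, that of KO replicate 3. The spot was 1.87 to 3.01 times its local background in WT and 1.24 to 1.44 times in KO. Its log10 ratios were -0.00551, -0.245 and 0.0237 in the WT samples and -1.04, -0.991 and -0.760 in the KO samples, close to those of the other Kng1 probe. Its log2 difference by loess ratios was -1.003, given as a description: the probe passed the filter on dim spots only through the group in which it was brighter, and with a filter on all 6 arrays it was not tested.

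Kng2 is the other mouse kininogen gene and a close copy of Kng1. Its processed Cy5 signals were 6426, 3209 and 5794 in the WT samples and 735, 856 and 1331 in the KO samples. The log10 ratios were -0.0145, -0.326 and 0.00114 in the WT samples and -1.13, -1.18 and -0.956 in the KO samples. KO replicate 3 was the highest KO array, and still below WT replicate 2. Kng2 fell 9.01-fold, with a log2 difference of -3.17 ± 0.31 (limma, adjusted p = 0.000538).

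**Figure D2:**
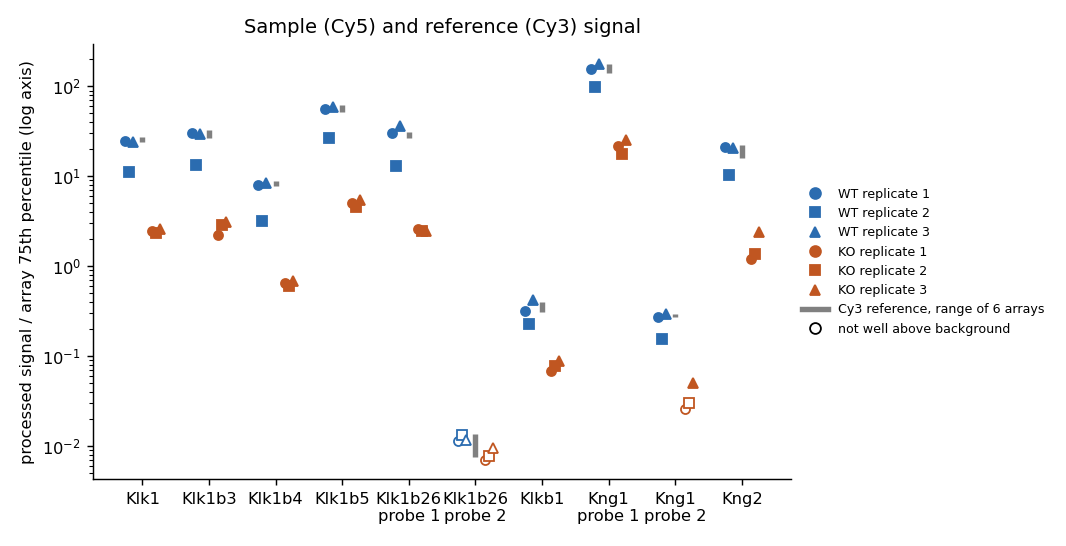
Processed Cy5 signal of each sample divided by its array's 75th percentile (log y axis) for the 10 probes (x axis), with the range of the Cy3 reference over the 6 arrays as a grey bar. The Klk1 signal is 11.1 to 24.9 in WT and 2.36 to 2.59 in KO, while its reference stays between 24.2 and 27.6. Heights of different probes are not comparable.

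The Cy3 channel held the same RNA on every array. Its processed signal had already been dye-normalised, so it can carry a correction fitted to the sample on that array. For Klk1, after division by the array's 75th percentile, it was 24.2 to 27.6 over the 6 arrays (coefficient of variation 4.98%). The other member probes in the fit had coefficients of variation from 3.12% (Kng1, A_55_P2003410) to 10.9% (Kng2). This spread comes from the reference RNA only, but it is not free of the dye normalisation. The same holds for the processed Cy5 signal where it is used alone.

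The size of the decrease depended on the processing for the dim probes. The Kng1 probe A_55_P2003410 differed by -1.003 with a normexp offset of 50 added to the corrected signals, -1.45 with an offset of 16, -2.84 by Agilent's processed ratio and -2.77 by the scaled Cy5 signal alone. The brighter Kng1 probe, A_55_P2003414, gave -2.95, -2.92, -2.88 and -2.71 under the same settings. The difference of 1.95 between the Kng1 probes thus fell to 0.045 by the Agilent ratio, and -0.060 by Cy5 alone. Klkb1 moved likewise, from -1.20 to -1.59, -2.23 and -2.02. For the 7 other tested probes, grouped as bright after their values were seen, the range was -2.78 to -3.32 by loess, -2.81 to -3.28 by the Agilent ratio and -2.71 to -3.37 by Cy5 alone. An added offset draws the ratio of a weak spot toward 0 by construction, so the loess values of Klkb1 and of this Kng1 probe are not comparable in size with those of the bright probes.

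**Figure D3:**
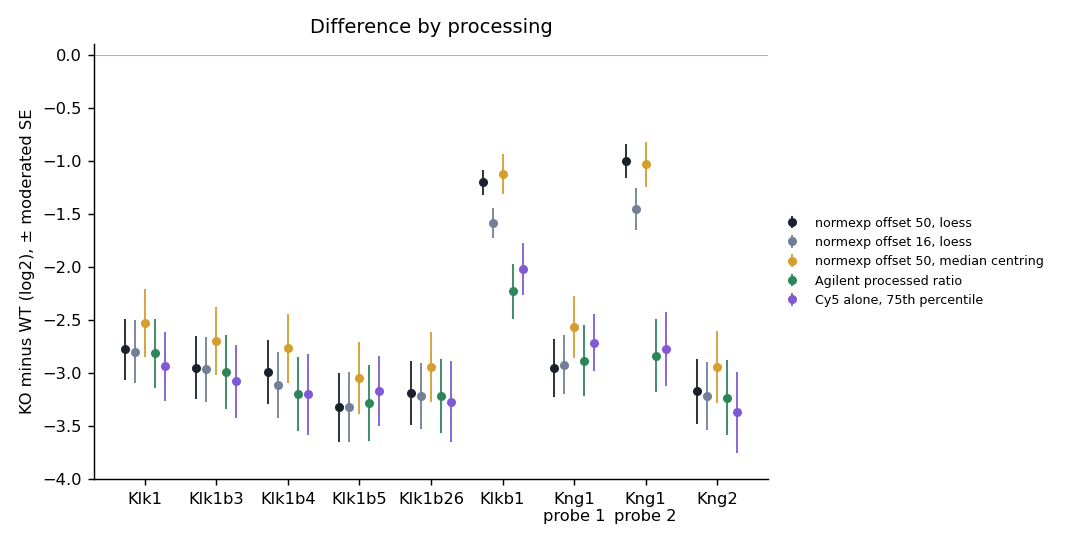
KO minus WT log2 difference with its moderated SE (y axis) for the 9 probes that entered the fit (x axis) under 5 ways of processing, shown by colour. Klkb1 and the Kng1 probe A_55_P2003410 (Kng1 probe 2) move from -1.20 and -1.003 with the offset of 50 to -2.23 and -2.84 with the Agilent ratio, while the other 7 stay below -2.5 throughout.

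Differences between members in the size of their decrease were taken within each array for the 36 pairs of probes in the fit. On the loess log2 scale the decrease of Klk1 was smaller than that of Klk1b26 by 0.41, with an SE of 0.037 from the spread of the within-array differences, and smaller than that of Klk1b5 by 0.55 (SE 0.094). Klk1b26 and Kng2 differed by -0.013 (SE 0.14). The probes of Klk1b3 and Klk1b4 were the closest pair, with a root mean square difference of 0.028 over the arrays. Whether they read separate transcripts was not checked. A 2-sided exact permutation test of 3 arrays against 3 cannot give a p below 0.1, which 23 pairs reached (smallest adjusted p 0.157), so this test could not pass the threshold whatever the values, and the order of the members is given as a description.

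WT replicate 2 was the lowest WT array for each member probe in the fit. On the loess log2 scale its difference from the mean of the other WT arrays was -1.13 for Klk1, -1.18 for Klk1b3, -1.18 for Klk1b4, -1.26 for Klk1b5 and -1.18 for Klk1b26. For Kng1 they were -0.98 and -0.41, for Kng2 -1.07 and for Klkb1 -0.26. Only 0.0235% of the 29811 probes were lower in WT replicate 2 than Klk1b5 by this measure, 0.174% lower than Kng1 (A_55_P2003414) and 9.55% lower than Klkb1, and the median of all probes was 0.0022. Without WT replicate 2 the decreases were larger, -3.15 for Klk1, -3.74 for Klk1b5 and -3.53 for Kng2. The KO arrays and WT replicate 1 lay in one row of the slide and the other WT arrays in the other row. When the row was fitted as a block, the differences of the 8 probes above background on all arrays were -1.22 to -3.70, and the highest adjusted p was 0.018 (limma), that of Klkb1. That fit rests on the single WT array that shared a row with the KO arrays.

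The rest of the kallikrein cluster was read next, because Klk1 and its copies are neighbours. RefSeq lists 26 protein-coding Klk genes there, 5 of them described above, and the order ends with Klk1b24, Klk1b3, Klk1b4, Klk1b5 and Klk1. Of the 21 others, 8 were tested, and these are all named although the choice to name them all was made after their values were seen. Klk1b24 differed by -2.72 ± 0.28 and Klk1b8 by -2.68 ± 0.29, beside -2.78 for Klk1. Klk1b22, which encodes an epidermal growth factor-binding kallikrein, differed by -1.88 ± 0.26, Klk1b21 by -1.57 ± 0.22 and Klk1b9 by -0.86 ± 0.14. All 5 passed as lower (limma, adjusted p between 0.000627 and 0.00413), and 18.6% of the 14755 tested genes did, with 32.3% passing in either direction. By Agilent's ratio these 5 differed by -2.79, -2.84, -2.53, -2.15 and -2.24. Klk1b9 was well above background on 3 WT arrays but only 2 KO arrays, so its WT arrays alone met the filter on dim spots. With the filter on all 6 arrays Klk1b9 was not tested, and 4 of the 6 genes then tested among the 21 passed as lower. Of the 12 genes Klk4 to Klk15, which are expressed mainly in skin and other epithelia, 3 were tested and none passed. Klk10 differed by -0.26 ± 0.10 (limma, adjusted p = 0.102) and passed as lower by Agilent's ratio (-0.97, adjusted p = 0.0221). Klk8 differed by 0.02 and Klk9 by 0.04, and the sign of each changed when single arrays were left out. On all 6 arrays, 10 of the 21 stayed at background.

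**Figure D4:**
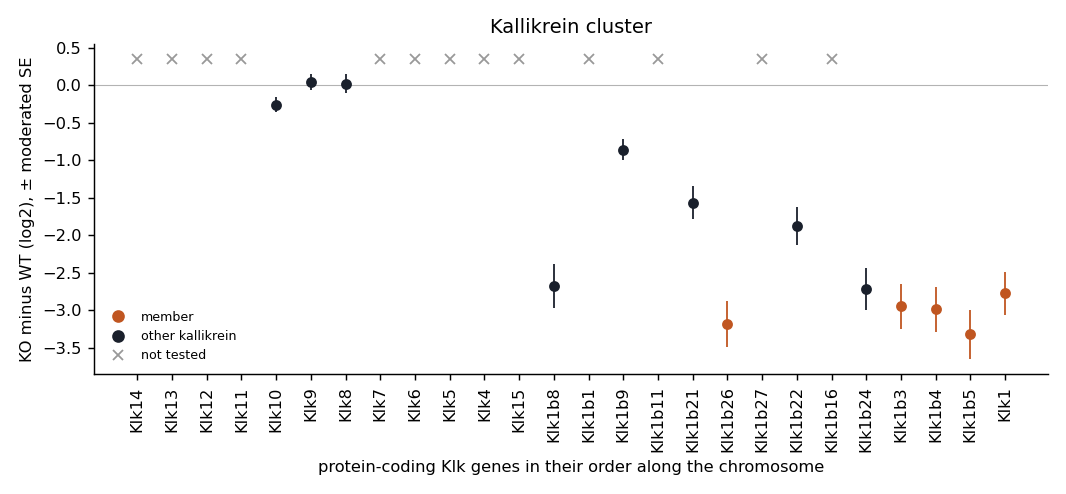
KO minus WT log2 difference with its moderated SE (y axis) for the protein-coding kallikrein genes in their chromosomal order (x axis, not to scale), with members in orange, other kallikreins in black and genes that could not be tested as crosses. The Klk1b genes and Klk1 lie between -0.86 and -3.32, and Klk8, Klk9 and Klk10 between -0.26 and 0.04.

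Kng1 and Kng2 lie beside Ahsg, Fetub and Hrg, which encode other liver-made proteins with cystatin-type domains. Fetub fell (-0.96 ± 0.16, limma, adjusted p = 0.00432), a call that was lost with the slide row as a block (-0.90, limma, adjusted p = 0.0799). Ahsg (1.04 ± 0.48, adjusted p = 0.157) and Hrg (-0.09 ± 0.14, adjusted p = 0.683), named after their values were seen, did not pass in the same limma fit, and the sign of Hrg changed with the processing. Ahsg passed as higher with median centring (1.48, limma, adjusted p = 0.044), by Cy5 alone (2.52, adjusted p = 0.049) and without KO replicate 3 (1.61, adjusted p = 0.0143), and differed by 0.46 without KO replicate 2. With the cystatins Cst3, Cst6, Cstb and Stfa1 the list had 7 genes tested, of which 3 fell and none rose, with a median of -0.24. Cstb, which encodes cystatin B, fell by 0.85 on the log2 scale and Cst3, which encodes cystatin C, by 0.48, and the call of Cst3 was lost in 8 of 19 alternative settings and that of Cstb with median centring. Of 10 other plasma proteins made by the liver, 8 were tested, 2 rose and 1 fell, with a median of 0.10. None of them rose (0) without KO replicate 2, WT replicate 2 or WT replicate 3, or with the slide row as a block. Beside these counts, 18.6% of all tested genes passed as lower and 13.8% as higher.

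The kinin receptor genes Bdkrb1 and Bdkrb2 were above background on no array, so neither was tested. Of 10 genes for contact activation and kallikrein inhibitors, 3 were tested. Serping1, which encodes the C1 inhibitor that blocks plasma kallikrein, rose (2.34 ± 0.23), Spink1, a trypsin inhibitor, fell (-0.93 ± 0.21) and Prcp, a prekallikrein activator, differed by -0.12 ± 0.20, a sign that was reversed with median centring (limma, adjusted p = 0.000577, 0.016 and 0.701). The call of Spink1 was lost with median centring and without KO replicate 2, WT replicate 1 or WT replicate 3.

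Among 17 kinin-degrading peptidases, 16 were tested, of which 6 rose and 3 fell, with a median of 0.05. Without WT replicate 3, as with the slide row as a block, 2 rose and 1 fell, and with another array left out 3 to 6 rose and 1 to 5 fell. Cpe and Cpm, carboxypeptidases that trim basic C-terminal residues, rose (1.80 ± 0.20 and 1.49 ± 0.18), and Mme, which encodes neprilysin, fell (-1.01 ± 0.14), each with a limma adjusted p of at most 0.00229. Of 16 kallikrein substrates and kinin effectors of the duct, 15 were tested, of which 7 fell and none rose, with a median of -0.44. Scnn1a (-2.27 ± 0.18) and Scnn1b (-1.64 ± 0.16) encode subunits of the epithelial sodium channel, which tissue kallikrein can cleave, and Nos3 (-1.11 ± 0.12) encodes the endothelial nitric oxide synthase. Each of these 3 fell with a limma adjusted p of at most 0.000647. For comparison, 18.6% of all tested genes passed as lower and 13.8% as higher. The count of changed genes over the pathway lists was 26 and dropped to 17 without WT replicate 3.

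Most markers of the connecting and late distal tubule, the collecting duct and the loop of Henle fell with the members. Of all tested genes, 18.6% passed as lower and 13.8% as higher, and 23.7% of tested probes had all KO values below all WT values. Of 11 tested connecting and late distal tubule markers 9 fell (median -1.14), of 9 principal cell markers 9 (-1.91), of 10 intercalated cell markers 10 (-2.43), and of 6 loop of Henle markers 6 (-2.20). None of these rose. In the same order the medians were -2.01, -1.86, -2.52 and -2.36 by Agilent's ratio. By Cy5 alone they were -1.98, -1.86, -2.60 and -2.44. The order of the connecting tubule and principal cell lists thus depended on the processing. Of 8 proximal tubule markers, 2 fell (-0.35), a count that was 0 without WT replicate 3 and 4 without WT replicate 2. The summed Cy5 signal of the connecting and late distal tubule list, each array divided by its 75th percentile, was 160 to 255 in WT and 55.4 to 62.7 in KO. That of the principal cell list was 129 to 153 against 25.6 to 33.2, of the intercalated list 66.4 to 109 against 14.8 to 17.9, and of the loop list 156 to 268 against 37.0 to 46.5. None of these sums overlapped between the groups. The loop of Henle lies outside the ureteric lineage, and its 6 markers were well above background on all 6 arrays. In bulk samples, fewer cells of a type and less RNA per cell cannot be told apart, and the part of these segments in the members' decrease was not tested.

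Markers of several other cells also moved, to be read beside the same shares of all tested genes (18.6% lower, 13.8% higher). All 7 tested stroma markers rose (median 2.24, summed signal 11.2 to 36.4 in WT, 99.8 to 106.5 in KO). Of 8 nephron progenitor markers 7 rose (median 2.28, summed signal 29.8 to 36.5 in WT, 68.4 to 131 in KO). The progenitor marker Tmem100 was well above background on 3 KO arrays but only 1 WT array, so its KO arrays alone met the filter. With the filter on all 6 arrays, 6 of 7 progenitor markers rose (median 2.12). Of 5 immune cell markers 4 rose and 1 fell (median 1.23), and of 6 podocyte markers 2 rose (0.19). All 7 endothelial markers fell (-1.04), as did all 4 erythroid markers tested (-2.22; 241 to 586 in WT, 77.7 to 108 in KO). With the slide row as a block, 4 of 7 stroma, 5 of 8 nephron progenitor, 0 of 5 immune, 4 of 7 endothelial, 3 of 4 erythroid, 7 of 9 principal cell and 8 of 11 connecting tubule markers passed in the same direction, and all of the intercalated and loop markers did. The single immune marker that fell was not called without KO replicate 2 or without any 1 of the WT arrays, and 1 podocyte marker rose without KO replicate 2, KO replicate 3, WT replicate 2 or WT replicate 3. On WT replicate 2 the list median of the log2 ratio was -1.10 for the members, -1.03 for the proximal tubule, -1.30 for the erythroid, -0.63 for the loop, -0.56 for the intercalated and -0.53 for the connecting tubule list, against -0.09 for the principal cell list. It was -1.01 for the podocyte, -0.80 for the stroma, -0.40 for the immune, 0.23 for the nephron progenitor and 0.15 for the endothelial list. On WT replicate 3 the podocyte, stroma and immune medians were -0.82, -0.80 and -0.68. The part of these cells in the result was not tested.

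**Figure D5:**
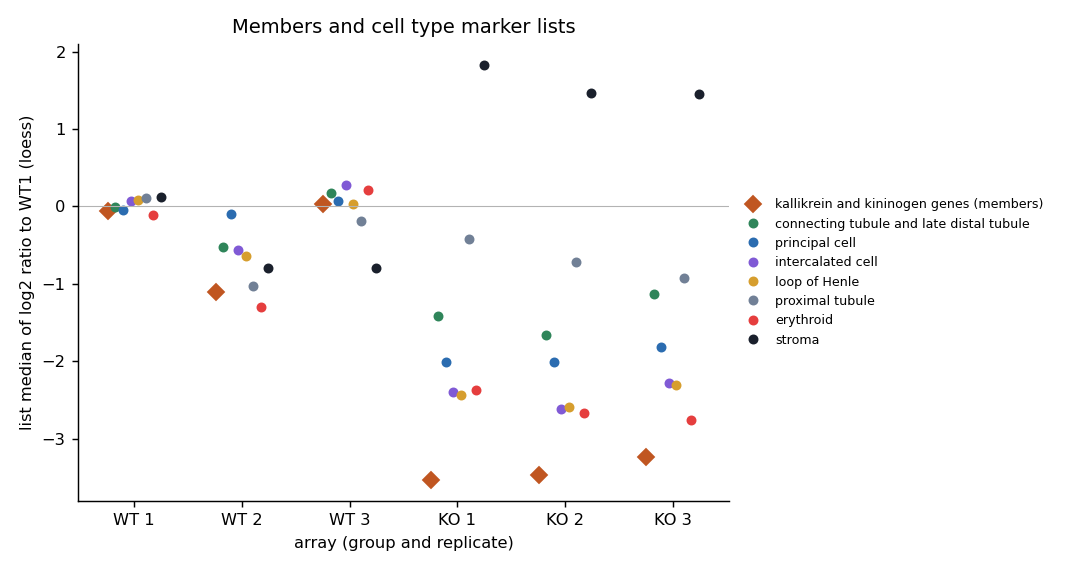
Median loess log2 ratio to the WT replicate 1 reference (y axis) of the members and of 7 cell type marker lists on each array (x axis). On the KO arrays the members lie between -3.24 and -3.53, below each of the other lists drawn, and stroma markers lie between 1.46 and 1.83; on WT replicate 2 the members lie at -1.10 and the principal cell markers at -0.09.

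The genes whose ratios over the 6 arrays were most like each member's were sought among 14739 genes outside the families, by the root mean square difference (RMS) of the log2 ratios. For Klk1 these were Hbb-bs (RMS 0.205), a beta globin, Umod (0.223), which encodes uromodulin of the thick ascending limb, and Upk3a (0.223), which encodes a urothelial uroplakin. Kcnj1, which encodes the ROMK potassium channel, was among the 3 nearest genes of Klk1b26 (0.149), as was Umod (0.191). Kcnj1 was also among the 3 nearest of Klk1b5 (0.192). Klk1b3 and Klk1b4 were both nearest to Hbb-bs (0.232 and 0.227) and then Kcnj1 (0.256 and 0.237), followed by Upk3a (0.279) for Klk1b3. The 3 nearest genes of Kng2 included Kcnj1 (0.220) and Umod (0.266).

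Kng1, by its brighter probe, was most like Scn4b (0.132), a sodium channel beta subunit, Tspan1 (0.136), a tetraspanin, and Umod (0.180). The genes named here as near to the 7 bright probes differed themselves by between -2.80 (Upk3a) and -3.13 (Kcnj1). For Klkb1 the nearest genes were Mcee (0.0572), Sec14l1 (0.0734) and Pop5 (0.0837), with differences of -1.12 to -1.20, on ratios that the offset of 50 draws toward 0 for its dim probe. Its nearest genes by the other ratios were not sought. The likeness is a description over 6 arrays that share one reference.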

How the data were processed

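Cy5 and Cy3 intensities were read from the deposited scanner files, written by Agilent Feature Extraction (version 10.7.3.1 in the headers, 6.1 in the submitters' processing notes). Per the file headers, that program had already subtracted background and normalised the dyes in the processed intensities and log10 ratios. The deposited series matrix held the same log10 ratios (Cy5 over Cy3, column median 0) to within 0.00499. Each array had 62976 spots, 3671 of them controls.

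Median intensities were corrected by normexp with an offset of 50, normalised by loess within each array and expressed as log2 ratios (limma 3.58.1, R 4.3.3). Control spots had weight 0, outlier spots were left out, and spots were averaged per probe. Probes well above background in Cy5 on at least 3 of 6 arrays were tested (29811 probes; lmFit with eBayes; residual degrees of freedom 4, prior 3.86). A list counts a gene by its brightest tested probe. Probe accessions gave 27509 of 55681 probes a symbol through RefSeq (GRCm38.p6, names, gene order and promoters only). No dyes were swapped, and the number of arrays limits the precision. The 6 arrays shared 1 slide and 1 scan.

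The rule for names took every probe of the members, the 3 most similar genes for each (some are not reported here), and from each pathway list all tested genes where at most 5 were listed, otherwise the 3 of smallest p; exceptions are stated where they occur. Members and lists were chosen with earlier results of these data known. Alternatives covered background, offset, normalisation, ratio source, filters, weights, blocks and leaving out arrays. The fit was tested on simulated data. Same-numbered replicates correlated at 0.142, 0.0733 and 0.193 in their deviations from the group means, so the numbers were not taken to pair samples.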

Additional observations from a re-analysis of the deposited data

How the results depend on the processing

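The 8 member probes above background on all 6 arrays passed as lower in each of the 19 alternatives run. Of the 29811 probes, 4248 passed as lower in the main fit. That number was lowest with median centring (1366 of 29811) and highest with array weights (5628 of 29811). The dim Kng1 probe, which is described without a test, dropped out with the filter on all 6 arrays and in the fit of 1 probe per gene. Over the whole array 7568 probes were called, 2192 with the slide row as a block and 3821 to 9482 with 1 array left out, the lowest without WT replicate 3; without WT replicate 1 there were 4883. Genes called in the pathway lists numbered 26, then 17 with the slide row as a block and 17 to 30 with 1 array left out. With the replicate number as a block (replicate block) 7244 of 29811 probes were called, 4128 of them as lower. The 8 member probes above background on all 6 arrays stayed lower, with a highest adjusted p of 0.00186 (limma), that of Klkb1. Median centring in place of loess moved the median of all probes to 0.22, and 77.2% of its 6002 calls were higher, against 43.9%; member differences were then -1.03 to -3.04.

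The difference between the Kng1 probes was 1.95, then 1.47 (offset 16), 1.53 (median centring), 0.045 (Agilent ratio), 0.046 (series matrix) and -0.060 (Cy5 alone). That of Klk1 from Klkb1 was -1.57, then -0.58 (Agilent ratio), -0.58 (series matrix) and -0.92 (Cy5 alone). Both pairs were chosen after values were seen. Signs reversed for Hrg (0.0070 without background correction, 0.27 with the Agilent ratio, 0.27 with the series matrix, 0.061 with the slide row, -0.19 to 0.026 with 1 array left out), Klk8 (-0.054 to 0.14 with 1 array left out, below 0 without KO replicate 1, WT replicate 1 or WT replicate 3), Klk9 (-0.0057 to 0.11, below 0 without KO replicate 3 or WT replicate 1) and Prcp (0.19 with median centring, -0.36 to 0.029 with 1 array left out). The cause of these changes was not tested. Spots near background limit the 2 dim probes, Klkb1 and Kng1 A_55_P2003410.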
